A study of Mus musculus with 3 samples.

Results

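The windows described here hold the annotated start, that is the 5′ end of the gene, of protein-coding genes on the mouse autosomes, in the deposited data on trimethylation of lysine 36 of histone H3 (H3K36me3). Each of 3 pools held about 280 oocytes at the germinal vesicle (GV) stage, the fully grown but still immature egg cells, taken from wildtype C57BL6/Babr mice at 25 days of age. The 3 pools are replicates of the only group, with no treatment, and the labels do not say whether they came from separate animals, so the spread between replicates given below may be technical. A start window is the 2 kb window of the genome (build GRCm38) that contains the start of a protein-coding gene in GENCODE M21, whatever its values. Of 20807 protein-coding genes on the 19 autosomes, 20001 have their start in a valid window, and these starts fall in 18764 windows among 1120034 valid autosomal windows and 1186323 valid windows in all. The remaining 806 starts lie in no valid window, 450 of them of genes named Gm or Rik and 95 of olfactory or vomeronasal receptor genes. A start window holds 1 start in 17571 cases and 2 or more in 1193, of which 1026 have starts on both strands, and genes that share a window share its value.

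When a gene is transcribed, the enzyme that places H3K36me3 travels with elongating RNA polymerase II, and the mark is known to build up over the body of the gene and to be low at its promoter. In growing oocytes H3K36me3 is thought to bring the de novo DNA methylation machinery to transcribed regions, though the link may be indirect. H3K4me3 is the usual mark of promoters and keeps that machinery away, although oocytes also carry it in broad domains outside promoters. H3K27me3 is placed by the Polycomb system and marks silent developmental genes. The level of H3K36me3 is given below as RPKM, the deposited value of each window in each replicate. A window counts as enriched, or called, when the mean over the 3 replicates is above 1. The calls of H3K4me3 and H3K27me3 are the deposited categories, which come from earlier libraries of the same laboratory and have no replicate values here. A pool averages over its oocytes, so 2 marks called in a window may lie on the same or on different chromosome copies, which cannot be told apart.

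The sequences of 6 starts are shown first, as single examples from some of the classes of start that the results turn on. They need not be typical of their class, and no unmarked start is among them. Each is the RefSeq promoter on GRCm38.p6, 250 bases before to 50 bases after the RefSeq start, 5′ to 3′ on the strand of the gene, with each CpG dinucleotide in capitals. Zp3 (chr5:135979855-135980154, plus strand) encodes a protein of the egg coat and has H3K36me3 and H3K4me3 at its start. Eif4a3 (chr11:119299994-119300293, minus strand), an RNA helicase of the exon junction complex, has H3K4me3 alone at its start and a high H3K36me3 body. Pax6 (chr2:105668646-105668945, plus strand), a transcription factor of eye and brain development, and Alb (chr5:90460620-90460919, plus strand), the albumin gene of liver, have H3K4me3 and H3K27me3. Peg3 (chr7:6730370-6730669, minus strand), an imprinted zinc finger gene, and the downstream start of Mest (chr6:30737800-30738099, plus strand), an imprinted gene of the hydrolase family, lie in windows with H3K36me3 alone. Peg3 and Eif4a3 were added to this set after their values were seen.
Zp3: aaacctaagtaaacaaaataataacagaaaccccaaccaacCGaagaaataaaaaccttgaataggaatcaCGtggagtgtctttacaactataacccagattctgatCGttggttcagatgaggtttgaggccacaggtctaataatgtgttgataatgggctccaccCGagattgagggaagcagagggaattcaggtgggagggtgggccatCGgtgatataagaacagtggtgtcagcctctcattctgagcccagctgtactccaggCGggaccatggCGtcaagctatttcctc
Eif4a3: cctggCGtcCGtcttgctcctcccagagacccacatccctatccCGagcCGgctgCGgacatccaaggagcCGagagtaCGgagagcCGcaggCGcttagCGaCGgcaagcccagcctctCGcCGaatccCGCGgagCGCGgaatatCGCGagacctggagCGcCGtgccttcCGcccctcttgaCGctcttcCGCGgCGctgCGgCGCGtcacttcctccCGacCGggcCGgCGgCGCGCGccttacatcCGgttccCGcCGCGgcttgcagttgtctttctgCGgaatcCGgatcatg
Pax6: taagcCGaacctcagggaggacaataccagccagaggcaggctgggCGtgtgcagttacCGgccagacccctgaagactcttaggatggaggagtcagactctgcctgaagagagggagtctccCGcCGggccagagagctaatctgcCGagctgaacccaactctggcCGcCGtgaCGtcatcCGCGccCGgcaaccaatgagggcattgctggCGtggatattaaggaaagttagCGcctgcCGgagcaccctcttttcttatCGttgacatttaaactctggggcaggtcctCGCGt
Alb: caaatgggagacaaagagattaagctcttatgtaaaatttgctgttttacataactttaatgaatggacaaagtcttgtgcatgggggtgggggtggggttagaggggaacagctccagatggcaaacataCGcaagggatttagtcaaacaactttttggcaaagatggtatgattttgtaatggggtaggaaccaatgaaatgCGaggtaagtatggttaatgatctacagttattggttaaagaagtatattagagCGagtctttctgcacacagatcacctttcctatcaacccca
Peg3: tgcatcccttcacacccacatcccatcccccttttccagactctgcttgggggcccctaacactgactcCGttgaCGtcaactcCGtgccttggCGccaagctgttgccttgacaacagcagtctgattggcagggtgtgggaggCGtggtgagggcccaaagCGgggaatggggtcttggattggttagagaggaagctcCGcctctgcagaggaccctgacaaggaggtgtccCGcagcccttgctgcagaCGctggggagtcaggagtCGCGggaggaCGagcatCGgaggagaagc
Mest: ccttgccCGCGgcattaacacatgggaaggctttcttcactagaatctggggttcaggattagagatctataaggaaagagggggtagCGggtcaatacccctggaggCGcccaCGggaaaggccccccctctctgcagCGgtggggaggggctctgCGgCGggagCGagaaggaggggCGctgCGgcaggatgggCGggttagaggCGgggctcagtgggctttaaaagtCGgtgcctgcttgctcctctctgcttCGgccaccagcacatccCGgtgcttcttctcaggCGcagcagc
The number of CpG in these 300 bases was 7 for Zp3, 42 for Eif4a3, 18 for Pax6, 3 for Alb, 13 for Peg3 and 17 for Mest. Several of these are far from the median over all annotated starts of the class. That median was 21 with H3K36me3 and H3K4me3 and 18 with H3K4me3 alone. It was 12 with H3K4me3 and H3K27me3 and 4 with H3K36me3 alone. GGGCGG was found on either strand in Eif4a3 and Mest, CCAAT in Pax6, Alb and Peg3, and TATAAA in none of the 6.

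The replicates differed in depth. The reads in valid windows numbered 7888140 in replicate 1, 2692510 in replicate 2, which was made with less antibody, and 3166564 in replicate 3, of which 101004, 33683 and 36602 fell in start windows. The median start window held 4 reads in replicate 1 and 1 read in each of the other replicates, and 718 start windows held no read in any replicate. A single read is worth 0.136, 0.396 and 0.338 RPKM in the 3 replicates, in that order. Values of single windows are therefore coarse, and most statements below rest on means over many windows. Across start windows the Pearson correlation between replicates was 0.530, 0.632 and 0.478, against 0.919, 0.935 and 0.892 across gene bodies, which are averaged over more reads. These correlations are across windows or genes of the same libraries and are given as a description.

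H3K36me3 was lower in start windows than in the rest of the autosomes. The mean level of the 18764 start windows was 0.731, 0.712 and 0.660 RPKM in the 3 replicates, that is 0.701 ± 0.037 (SD, n = 3). The 1101270 other autosomal windows averaged 0.914 ± 0.002 RPKM over the replicates (SD), and those among them that lie in protein-coding genes had 1.35 ± 0.03. All 3 replicates were lower at starts, and the groups of replicate values did not overlap. The log2 ratio of start windows to other windows was -0.32, -0.36 and -0.47, with a mean of -0.38 ± 0.08 (SD, n = 3; two-sided exact sign-flip permutation test, p = 0.25, and 0.25 after Benjamini-Hochberg adjustment over 6 contrasts). With 3 replicates 0.25 is the smallest p this test can give, so none of the 6 contrasts below can pass a threshold of 0.05. The mean level was lower at starts on 19 of 19 autosomes, from a log2 ratio of -0.53 on chromosome 2 to -0.10 on chromosome 3. Medians over windows were equal (0.543, 0.396 and 0.338 RPKM in the 3 replicates for start windows and for other windows alike). They stand for 4, 1 and 1 reads, so a shift smaller than a read cannot show in them.

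The lower level depends on which starts are taken. With the 5′ end of every protein-coding transcript (29746 windows), many of which lie inside the gene, the log2 ratio was 0.032 ± 0.028 in place of -0.38, and 32.7% of windows were called for H3K36me3. With only the 9486 windows of starts that had no other annotated gene within 5 kb it was -0.61 ± 0.11, and against the other windows inside protein-coding genes it was -0.94 ± 0.11. Start windows are richer in G and C than the genome, with a mean GC content of 50.1% against 42.0% of all autosomal windows. In each of 7 bins of GC content from 30% to 65% start windows were lower than other windows in all 3 replicates, with mean log2 ratios between -0.90 and -0.45. In bins of CpG content the mean was also lower at starts, but hardly so at the CpG-rich end. With fewer than 10 CpG in the window starts had 0.402 ± 0.024 RPKM, against 0.695 ± 0.003 in other windows. With 80 or more CpG they had 0.745 ± 0.037, against 0.769 ± 0.004 in 3064 other windows. In that bin 24.6% of start windows and 24.5% of other windows were called for H3K36me3.

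The level fell gradually toward the start and rose steeply behind it. Counted per gene, the mean level was 0.999 ± 0.005 RPKM in the window 20 kb upstream, 0.836 ± 0.023 at 4 kb upstream and 0.752 ± 0.034 in the window next to the start window. It was 0.713 ± 0.036 in the start window itself, 1.08 ± 0.02 in the next window into the gene and 1.16 ± 0.02 at 4 kb downstream (SD, n = 3 throughout). The level then stayed close to 1.20 RPKM up to 30 kb downstream. H3K4me3 had the opposite shape: 39.8% of windows at 20 kb upstream were in that category, 78.3% of start windows and 34.98% of windows at 4 kb downstream. H3K27me3 was nearly flat, with 29.3%, 32.7% and 29.1% at the same places. By the distance of the window's midpoint from the start, the lowest mean was 0.653 ± 0.048 RPKM for midpoints up to 500 bases before the start, and 0.724 ± 0.035 for midpoints up to 500 bases after it.

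**Figure D1:**
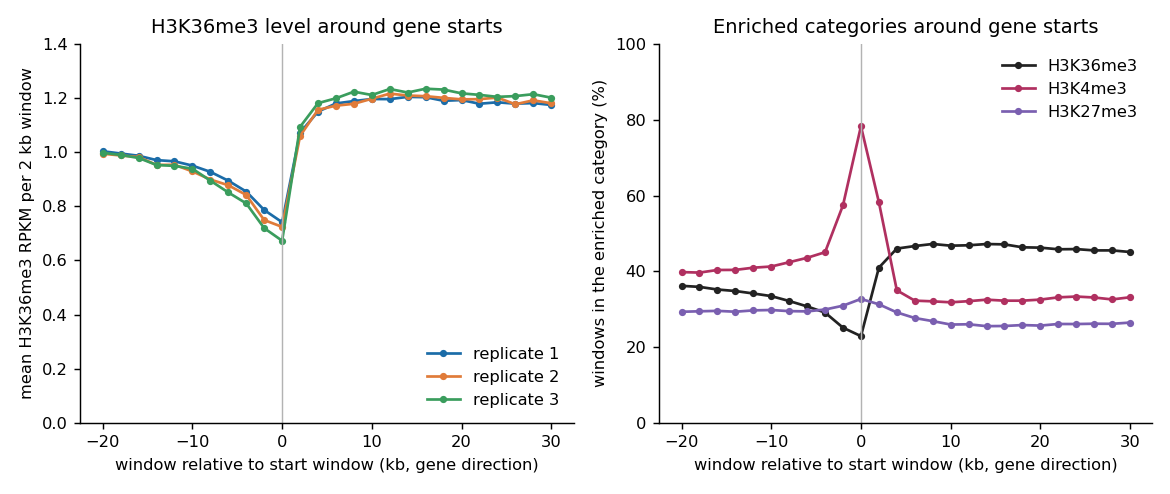
Left, mean H3K36me3 level in RPKM of 2 kb windows from 20 kb before to 30 kb after the start windows of 20001 protein-coding genes, in gene direction, with a line for each replicate. Right, share of the same windows in each enriched category in percent. H3K36me3 falls to 0.713 RPKM (mean of the replicates) in the start window, where H3K4me3 reaches 78.3%.

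Fewer start windows were enriched for H3K36me3 than windows in general. Of the 18764 start windows, 4151 (22.1%) were called for H3K36me3, where 32.2% of all valid autosomal windows were called. By replicate, 23.3%, 26.8% and 27.3% of start windows were above 1, against 32.4%, 32.8% and 35.4% of all autosomal windows. Above 1 in each of the 3 replicates were 1886 start windows (10.1%), against 20.1% of autosomal windows. Of the called start windows 45.4% were above 1 in all 3 replicates, where 62.5% of all called autosomal windows were. H3K4me3 was called in 14470 start windows (77.1%, against 28.7% of autosomal windows) and H3K27me3 in 6374 (34.0%, against 30.6%).

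The 3 marks divide the start windows into 8 categories. H3K4me3 alone was the most frequent, with 6648 windows (35.4%, against 14.3% of all autosomal windows), followed by H3K4me3 with H3K27me3 (4798 windows, 25.6% against 9.23%) and H3K36me3 with H3K4me3 (2831 windows, 15.1% against 4.67%). H3K36me3 alone, which held 25.0% of all autosomal windows, held 5.36% of start windows (1006). No mark was called in 1905 start windows (10.2% against 25.4%, and 9.66% when counted per gene) and H3K27me3 alone in 1262 (6.73% against 18.9%). Counted per gene, H3K36me3 with H3K4me3 held 16.2% of starts and H3K4me3 with H3K27me3 held 24.8%. The rare combinations were H3K36me3 with H3K27me3 (121 windows, 0.645% against 2.01%) and all 3 marks (193 windows, 1.03% against 0.533%). Among start windows with an H3K36me3 call 72.8% also had H3K4me3, where 16.2% of all autosomal windows with that call did. The 72.8% is below the 77.1% of all start windows that had H3K4me3. H3K36me3 was called in 20.9% of start windows with H3K4me3 and in 26.2% of those without it. Over all autosomal windows these shares were 18.1% and 37.9%. For H3K27me3, H3K36me3 was called in 4.93% of start windows with it and in 31.0% of those without it. All autosomal windows showed a like split, with 8.30% and 42.7%.

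The H3K36me3 level of each category is a description, since the call itself rests on that level. Start windows with H3K36me3 alone had 1.97, 2.09 and 2.22 RPKM in the 3 replicates, and those with H3K36me3 and H3K4me3 had 1.46, 1.75 and 1.80. The 193 windows with all 3 marks had 0.995, 1.76 and 1.15, so their mean of 1.30 ± 0.41 rests more on replicate 2 than on the others, and 10.4% of them were above 1 in every replicate. Among starts without the call, those with H3K4me3 alone had 0.610, 0.456 and 0.406 RPKM, a mean of 0.491 ± 0.106. Starts with H3K4me3 and H3K27me3 had 0.360 ± 0.095, starts with H3K27me3 alone 0.314 ± 0.073 and unmarked starts 0.238 ± 0.042 (SD, n = 3). The values of these last 3 classes overlapped between replicates, but within each replicate they stood in this order.

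**Figure D2:**
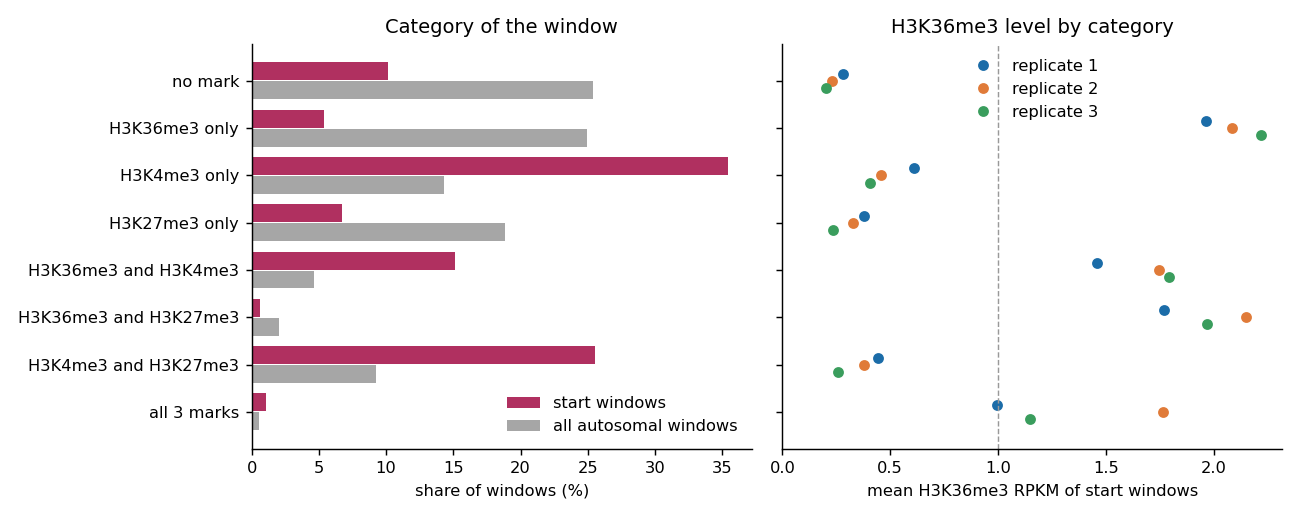
Left, share in percent of the 18764 start windows and of all 1120034 valid autosomal windows in each of the 8 categories of marks. Right, mean H3K36me3 level in RPKM of the start windows of each category, a point for each replicate, with a dashed line at 1. H3K4me3 alone is the largest category of starts at 35.4%, and for all 3 marks replicate 2 lies apart at 1.76 RPKM.

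CpG content differed between the categories. The median number of CpG in the 2 kb window was 71 for starts with H3K4me3 alone and 78 with H3K36me3 and H3K4me3. It was 58 with H3K4me3 and H3K27me3, 26 with H3K36me3 alone, 16 with H3K27me3 alone and 8 for unmarked starts, where the median over all autosomal windows was 14. In the 300 bases around each of the 20001 starts (250 before to 50 after, read from the genome on the strand of the gene), the median number of CpG was 18 with H3K4me3 alone, 21 with H3K36me3 and H3K4me3, 4 with H3K36me3 alone and 1 without a mark. The motif TATAAA, on either strand, occurred in 29.9% of unmarked starts, 17.7% of starts with H3K36me3 alone and 8.95% of starts with H3K4me3 alone, against 12.5% of all starts. GGGCGG, the core of the GC box, occurred in 4.61%, 19.2% and 57.2% of the same classes, against 45.03% of all starts. CCAAT varied less, between 24.5% and 44.2% over the 8 classes, with 38.1% of all starts. A match of letters is a description and not a bound site.

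The level of the start followed its CpG content only at the CpG-poor end. Start windows with fewer than 10 CpG (1759) had a mean of 0.402 ± 0.024 RPKM, those with 10 to 19 (2200) had 0.606 ± 0.042 and those with 20 to 39 (3577) had 0.743 ± 0.045. With 40 to 79 CpG (5332) the mean was 0.762 ± 0.034 and with 80 or more (5896) it was 0.745 ± 0.037, values within 1 SD of each other. H3K4me3 rose over the whole range, from 13.1% through 38.5%, 70.1% and 94.8% to 98.9% of windows. The share without any mark fell from 62.9% in the lowest bin to 0.204% in the highest. Gene bodies above 1 made up 18.2% behind the CpG-poorest starts and 76.1% behind the CpG-richest.

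The gene body behind the start was compared with the start itself. For 13196 genes of at least 10 kb the body was the mean over windows inside the gene that lie beyond the start window and its neighbour. The mean body level was 1.42, 1.45 and 1.50 RPKM in the 3 replicates, and the start windows of the same genes had 0.758, 0.736 and 0.684. In every replicate the bodies lay higher than the starts, and the replicate values did not overlap. The log2 ratio of body to start was 0.91, 0.98 and 1.13, with a mean of 1.01 ± 0.11 (SD, n = 3; exact sign-flip test, p = 0.25). The body was above 1 in 8298 genes, which is 62.9% of these genes. In 92.3% of those 8298 genes the start window was lower than the body, in 76.7% it was lower in each of the 3 replicates, and in 66.4% the start window itself was not called. Over all 13196 genes the same shares were 82.7%, 60.6% and 77.1%, and choosing high bodies by itself favours a start below the body.

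Bodies were high behind some classes of start and low behind others. Behind starts with H3K4me3 alone (5353 genes) the body level was 1.75, 1.79 and 1.89 RPKM, and 84.8% of bodies were above 1, where 62.9% of all bodies were. Behind unmarked starts (663 genes) it was 0.503, 0.510 and 0.501 RPKM, with 15.5% of bodies above 1. Both classes lack the H3K36me3 call at the start, and the replicate means of their bodies did not overlap, with a mean log2 ratio of 1.84 ± 0.06 (SD, n = 3; exact sign-flip test, p = 0.25). This ratio fell to 0.77 ± 0.01 when the start was classed by H3K4me3 and H3K27me3 alone, since starts with H3K36me3 alone then count as unmarked. With only windows that held at least 1 read it was 1.54 ± 0.07, from 5291 genes with H3K4me3 alone and 502 unmarked. A start without a call may also be a window of poor coverage, which was not tested.

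Behind starts with H3K4me3 and H3K27me3 (3547 genes) the body level was 0.768, 0.739 and 0.696 RPKM. Here 23.6% of bodies were above 1, and 59.2% of the body windows of such a gene, on average, were called for H3K27me3 against 6.80% behind H3K4me3 alone. The bodies behind H3K4me3 alone were higher in all 3 replicates, by a log2 ratio of 1.30 ± 0.13 (SD, n = 3; exact sign-flip test, p = 0.25). Behind H3K27me3 alone (613 genes) the body level was 0.426 ± 0.053 RPKM, 5.87% of bodies were above 1, and 70.6% of body windows were called for H3K27me3.

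Behind starts with H3K36me3 alone (525 genes) the body level was 1.84, 1.88 and 2.05 RPKM, close to that behind H3K4me3 alone. The log2 ratio of the former to the latter was 0.09 ± 0.02 (SD, n = 3; exact sign-flip test, p = 0.25), the smallest of the 6 contrasts. It was 0.0074 ± 0.036 (exact p = 1.0) when the body began 10 kb after the start window. The highest bodies lay behind starts with H3K36me3 and H3K4me3 (2294 genes), with 2.11, 2.22 and 2.32 RPKM and 96.2% of bodies above 1. Behind all 3 marks (131 genes) the body level was 1.15 ± 0.04 RPKM with 49.6% of bodies above 1, and behind H3K36me3 with H3K27me3 (70 genes) it was 1.53 ± 0.11 with 67.1%. Because start and body come from the same libraries, the classes that use the H3K36me3 call were also formed from replicate 1 and the bodies taken from replicates 2 and 3. The 3 contrasts of start classes then gave log2 ratios of 1.82, 1.36 and 0.09, in the order given above.

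Read from the body, 54.7% of the 8298 genes with a body above 1 had H3K4me3 alone at the start, 26.6% had H3K36me3 and H3K4me3, and 10.1% had H3K4me3 and H3K27me3. H3K36me3 alone made up 5.60% and unmarked starts 1.24%. Of the 4898 genes with a body at or below 1, 55.3% had H3K4me3 and H3K27me3 at the start, 16.6% H3K4me3 alone, 11.8% H3K27me3 alone and 11.4% no mark.

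**Figure D3:**
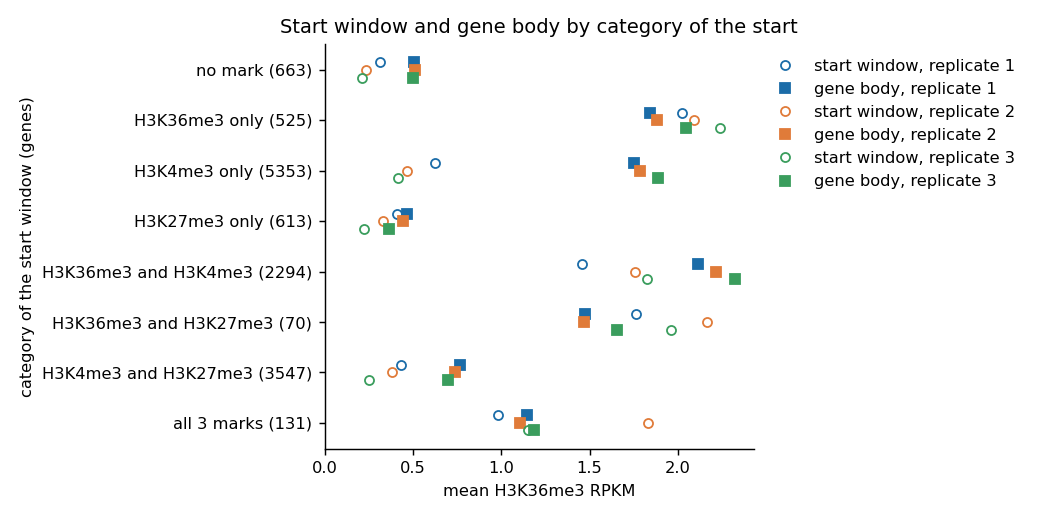
Mean H3K36me3 level in RPKM of the start window (open circles) and of the gene body (squares) for 13196 genes of at least 10 kb, by the category of the start window, a colour for each replicate. Behind H3K4me3 alone the bodies lie between 1.75 and 1.89 RPKM while the starts lie between 0.413 and 0.626.

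The level around the start was also followed by the marks called there. When the starts of genes with a body value were grouped by H3K4me3 and H3K27me3 only, which do not use the H3K36me3 libraries, the 7647 genes with H3K4me3 and no H3K27me3 had 1.05 ± 0.01 RPKM between 5000 and 4500 bases before the start. They had 0.729 ± 0.041 within 500 bases before the start and 1.69 ± 0.09 between 2000 and 2500 bases after it. Farther out, between 10000 and 9500 bases before the start, the same genes had 1.19 ± 0.03. The 3678 genes with H3K4me3 and H3K27me3 also had a dip, at a lower level and without the steep rise into the gene. They had 0.580 ± 0.042 RPKM between 10000 and 9500 bases before the start, 0.377 ± 0.089 within 500 bases before it, 0.423 ± 0.092 between 2000 and 2500 bases after it and 0.568 ± 0.062 between 9500 and 10000 bases after it (SD, n = 3). In each of the 3 replicates the value just before the start was the lowest of these 4. The 683 genes with H3K27me3 and no H3K4me3 had 0.527 ± 0.049, 0.457 ± 0.073, 0.492 ± 0.047 and 0.404 ± 0.035 RPKM at these places, and the 1188 genes with neither mark had 1.07 ± 0.01, 1.13 ± 0.03, 1.13 ± 0.12 and 1.21 ± 0.03. The difference between the profiles was not tested.

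**Figure D4:**
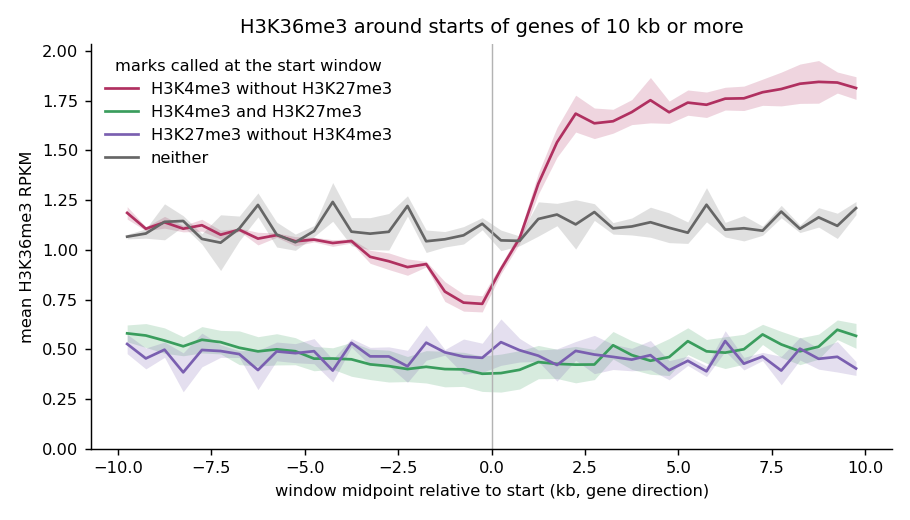
Mean H3K36me3 level in RPKM of 2 kb windows by the distance of the window's midpoint from the start in kb, for genes of at least 10 kb, with a line for each combination of H3K4me3 and H3K27me3 called at the start and a band of 1 SD over the 3 replicates. The line for H3K4me3 without H3K27me3 goes from 0.729 RPKM just before the start to 1.69 at 2000 to 2500 bases after it, and the line for both marks dips from 0.580 to 0.377 RPKM without such a step.

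Some starts that are themselves enriched for H3K36me3 lay in longer enriched stretches. Of the 4575 genes with an H3K36me3 call at the start, 19.8% had their start inside another protein-coding gene, against 12.1% of all 20001 genes. Both neighbouring windows were also called for 50.5% of such starts with valid neighbours, and only the downstream one for 31.9%, against 17.9% and 23.3% of all starts with valid neighbours. For 1517 genes (33.2% of the 4575) the called stretch reached 10 kb or more upstream of the start window. These are 7.58% of all 20001 starts, where a start without the call counts as having no stretch. The share among called windows in general was not computed. Starts with H3K36me3 alone more often lay inside another gene (29.6%) and more often had such a stretch (44.9%) than called starts together. The level was higher at the 1996 start windows with a start inside another protein-coding gene (1.00, 0.999 and 0.973 RPKM) than at the other 16768 (0.698, 0.677 and 0.623), by a log2 ratio of 0.58 ± 0.06 (SD, n = 3; exact sign-flip test, p = 0.25). All 3 replicates showed this, also with the other gene on the same strand (log2 ratio 0.48) and on the opposite strand (0.64).

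Known genes of the oocyte were listed to see where they fall. Of 20 oocyte genes, 20 had H3K4me3 at the start, where 78.3% of all genes did, 12 had H3K36me3 (22.9% of all genes) and 2 had H3K27me3 (32.7%). Of the 16 with at least 1 body window, 13 had a body above 1 (58.4% of all such genes). The start window of Zp3 (chr5:135980001-135982000) had 3.26, 3.57 and 5.08 RPKM from 48 reads. The other egg coat genes Zp1 and Zp2 had mean start levels of 1.77 ± 0.67 and 2.78 ± 0.53 RPKM (SD, n = 3). These starts were high in every replicate, from a lowest value of 1.02 RPKM in Zp1.

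Padi6 and Nlrp5, of the maternal complex under the egg surface, had start levels of 2.17, 4.36 and 3.05 RPKM and of 0.815, 3.57 and 2.71 RPKM. Dnmt3l, the cofactor of de novo DNA methylation, had 3.12, 0.396 and 5.08 RPKM at its start, and Tle6 had 1.22, 0.396 and 3.72, so that replicate 2 was at the level of 1 read in both. By the mean of the replicates, the body was lower than the start in Zp1, Zp2, Zp3, Padi6, Nlrp5 and Dnmt3l. In Zp3 it was 1.62 against 3.97 RPKM, and in Padi6 1.95 against 3.19. The start was below the body in 9 of the 16 oocyte genes with a body window, where 13711 of all 17291 such genes had this. Lhx8 and Gdf9 were among the 9. Lhx8, a transcription factor of early oocytes, had H3K4me3 and H3K27me3 at the start with 0.543, 0 and 0 RPKM, and 2.38, 2.59 and 2.43 in the body. Gdf9, a growth factor secreted by the oocyte, had 1.36, 1.19 and 0.338 RPKM at the start and 2.44, 2.18 and 2.03 in a body of 2 windows. Sohlh1, a transcription factor of early oocytes, and Zar1, a maternal RNA-binding protein, were low at both places, with mean body levels of 0.335 and 0.203 RPKM from 1 window each. The 12 oocyte genes listed as cell type markers are among these 20, and 9 of them had an H3K36me3 call at the start (22.9% of all genes) and 9 of 10 had a body above 1 (58.4%).

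Genes used by nearly every cell had H3K4me3 at the start in 20 of 20 cases (78.3% of all genes), H3K36me3 in 8 (22.9%) and H3K27me3 in 1 (32.7%), and 14 of 18 bodies were above 1 (58.4%). Polr2a, the largest subunit of RNA polymerase II, had 0.951, 0.396 and 0.677 RPKM at the start and 2.36, 2.41 and 3.20 in the body. Sdha, a subunit of succinate dehydrogenase, had a mean of 0.487 ± 0.623 RPKM at the start and 2.42 ± 0.16 in the body. In both genes every replicate was higher in the body than at the start. Tfrc, the transferrin receptor, had H3K36me3 and H3K4me3 at the start with 1.19 ± 0.51 RPKM and a body of 2.82 ± 0.43 (SD, n = 3). Gusb, Eef1a1 and Gapdh were among those with bodies at or below 1, with 0.340, 0.783 and 0.542 RPKM.

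Developmental regulators stood at the other end. Of 20, all had H3K27me3 at the start (32.7% of all genes), 19 also had H3K4me3 (78.3%) and none had H3K36me3 (22.9%). Their start levels lay between 0 and 0.874 RPKM with a median of 0.443, and 1 of 14 bodies was above 1 (58.4% of all genes), that of Gata4, a transcription factor also known in gonadal cells, with 1.28, 1.16 and 1.31 RPKM. Pax6 had 1 read in its start window, in replicate 1, and 0.460, 0.457 and 0.443 RPKM in its body. Genes of other differentiated tissues had H3K27me3 in 16 of 20 starts (32.7% of all genes). H3K4me3 in 16 of 20 and H3K36me3 in 4 of 20 were near the shares over all genes (78.3% and 22.9%). Of their bodies 4 of 15 were above 1 (58.4% of all genes), among them Cd4, a coreceptor of T cells, with 2.73 ± 0.07 RPKM, Cela1, an elastase, with 1.74 ± 0.25, and Ahsg, a plasma protein of liver, with 1.68 ± 0.48 (SD, n = 3).

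Genes of granulosa cells, the follicle cells that surround the oocyte, had H3K27me3 in 5 of 8 starts (32.7% of all genes), H3K4me3 in 5 (78.3%) and H3K36me3 in 2 (22.9%), and 1 of 4 bodies was above 1 (58.4%). The H3K36me3 count is near the share over all genes. Fshr, the receptor of follicle-stimulating hormone, had 0.361 ± 0.341 RPKM at the start and 0.352 ± 0.031 over 100 body windows. Cyp19a1, the aromatase gene, had 0.404 ± 0.407 and 0.702 ± 0.067 RPKM. Amh, anti-Müllerian hormone, and Hsd17b1, an enzyme of estradiol synthesis, are short genes with no body window, and their start windows had H3K36me3 alone with 1.79 ± 0.57 and 1.50 ± 0.45 RPKM. Nr5a1, a transcription factor of steroid-producing cells, had the only body above 1, with 1.68 ± 0.22 RPKM. What part chromatin of granulosa cells has in these values was not tested.

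**Figure D5:**
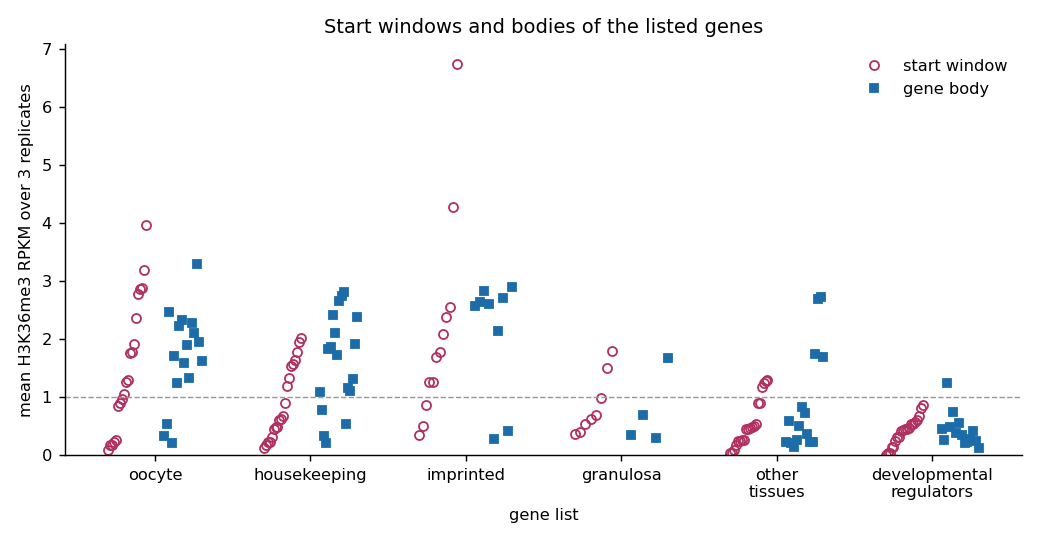
Mean H3K36me3 level in RPKM over the 3 replicates of the start window (open circles) and the gene body (squares) of each gene in 6 lists, with a dashed line at 1. All 20 developmental regulators lie at or below 0.874 RPKM at the start, and 12 of 20 oocyte genes lie above 1 there.

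Imprinted genes with a promoter that is methylated in the oocyte had high starts, with a median of 1.74 RPKM against 0.494 over all genes. Of 12, 9 had H3K36me3 at the start (22.9% of all genes), 6 had H3K4me3 (78.3%) and none had H3K27me3 (32.7%), and 7 of 9 bodies were above 1 (58.4%). Sgce and Peg10 share 1 of the called windows. Peg3 had 5.43, 6.34 and 8.46 RPKM at its start and 3.08, 2.77 and 2.85 in its body. Mcts2, a retrogene inside another gene, had 3.40, 6.74 and 2.71 RPKM, Nnat 1.63, 1.98 and 4.06, and Nap1l5 1.49, 2.38 and 2.37. All of these starts had H3K36me3 without H3K4me3, and every replicate was above 1. Nnat and Nap1l5, like Mcts2, start inside another protein-coding gene, and Peg3 does not. What part this position has in their levels was not tested. Snrpn, a splicing protein gene, was in the same category with 1.49, 3.57 and 0 RPKM, so that its replicates did not agree. This value is that of its outermost annotated 5′ end (chr7:60140001-60142000), in a window with 9 CpG. The start window of Snurf (chr7:60004001-60006000), inside the annotated span of Snrpn, had 51 CpG and 3.94, 9.91 and 8.46 RPKM. Slc38a4, an amino acid transporter, had a start of 1.22, 3.57 and 2.37 RPKM and a body of only 0.351, 0.492 and 0.408. Sgce also had a low body, with 0.276 ± 0.032 RPKM, behind the called start window that it shares with Peg10. That window had 2.31, 0.793 and 0.677 RPKM, so it was above 1 in replicate 1 only. Peg10 differed, with a body of 2.61 ± 0.34 RPKM.

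For Mest the annotated 5′ end is not the start it is known for. The start window of the annotated 5′ end (chr6:30722001-30724000) had H3K4me3 alone and 0.497 ± 0.436 RPKM. The RefSeq start whose sequence is shown above lies 14503 bases downstream, in a window (chr6:30738001-30740000) with H3K36me3 alone and 1.90, 2.38 and 1.35 RPKM. Plagl1, a zinc finger gene, had H3K4me3 alone at its annotated start with 0.815, 0.793 and 1.02 RPKM and a body of 2.58, 2.54 and 3.36. For genes with several promoters the start window therefore describes the outermost promoter only.

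The highest start windows of all, among those above 1 in every replicate, included 2 imprinted loci. The window chr7:60004001-60006000, with the starts of Snurf and Gm38393, had 3.94, 9.91 and 8.46 RPKM from 79 reads, and the window of Peg3 and Usp29 (chr7:6730001-6732000) came next. D10Wsu102e had 2.04, 8.72 and 8.80 RPKM, Gm17332 had 4.35, 5.15 and 9.81, and Avpr1a, a vasopressin receptor gene, had 2.44, 7.53 and 7.11. Replicate 1, the deepest, had the lowest value in all 5 windows. Usp29, a ubiquitin protease gene that starts on the opposite strand from Peg3, had a body of 0.710 ± 0.045 RPKM over 114 windows, of which 72 were called for H3K27me3, against 2.90 ± 0.16 in the body of Peg3.

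CpG-rich starts without H3K4me3 were looked at after these values were seen. Of 12349 starts in windows with at least 40 CpG, 355 (2.87%) had no H3K4me3 call, and 72.7% of these 355 had H3K36me3, against 25.7% of the 12349. Of 6597 starts in windows with at least 80 CpG, 67 (1.02%) had no H3K4me3 call, and 79.1% of the 67 had H3K36me3, against 26.0%. In 51 of the 67 H3K36me3 was the only mark. Among the 67, the highest above 1 in every replicate were Avpr1a (5.69 RPKM on average), Mcts2 (4.28), Zrsr1 (3.68), Prep (3.58), Dnmt3b (3.55) and Egfem1 (3.31). Zrsr1 is an imprinted retrogene, Prep encodes a prolyl endopeptidase and Dnmt3b a de novo DNA methyltransferase, whose start had 3.39, 5.55 and 1.69 RPKM with 115 CpG in the window.

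The bodies that stood highest behind starts with H3K4me3 alone were those of Pigt, Polrmt, Eif4a3, Zfp58 and Gm12258. Pigt, a subunit of the enzyme that attaches GPI anchors, had 0.679, 0.396 and 0.677 RPKM at the start (chr2:164496001-164498000) and 5.30, 5.25 and 5.58 in the body. Polrmt, the mitochondrial RNA polymerase, had 1.09, 0 and 0.338 at the start and 4.11, 5.55 and 6.43 in the body. Eif4a3 had 1.09, 0 and 0 at the start and 4.54, 4.76 and 5.62 in the body. In each of the 5 genes every replicate was higher in the body, which the choice of the highest bodies behind uncalled starts by itself favours.

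Behind starts with H3K27me3 and without H3K36me3, the highest bodies were those of Nipsnap3b, Zfp612, Adamtsl4, Lrp2 and Trrap, between 2.95 and 3.25 RPKM, and all 5 also had H3K4me3 at the start. Trrap, a scaffold of histone acetyltransferase complexes, had 1 read at the start and 2.85, 3.01 and 2.98 RPKM over 45 body windows, all of them called for H3K36me3. Lrp2, the endocytic receptor megalin, had 0.475 ± 0.556 RPKM at the start and 2.95 ± 0.41 in the body (SD, n = 3). Of its 80 body windows 73 were called for H3K36me3 and 46 for H3K27me3.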

How the data were processed

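The mark was profiled in each oocyte pool by low-input ChIP-seq on native chromatin. Reads were mapped by the authors (Bowtie2 2.2.9 and GRCm38, from the submitters' processing notes) and counted in 2 kb windows, of which those with extreme input were removed. Duplicate removal is not given in the sources used here. The deposited RPKM values were used unchanged, and all were whole multiples of 1 read (100% within 0.01 of a read). Their sums are nearer to CPM than to RPKM, so levels are comparable only among windows of this size. The deposited categories are names only, and the H3K36me3 category equalled a mean RPKM above 1 in every window (0 differences).

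Windows were joined to GENCODE M21 starts (GRCm38). A gene body needed a gene of at least 10 kb and 3 valid windows, except that 1 window was enough for listed genes. Log2 ratios of mean RPKM, without a pseudocount, were tested over the 3 replicates by exact sign-flip permutation, two-sided (Python 3.11.15, NumPy 2.4.6, SciPy 1.17.1), after a test on simulated data. Read counts carry counting error only.

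The windows, lists and tests were chosen with earlier results of these data known. Named are members of the lists (oocyte, housekeeping, developmental, other tissues, imprinted, granulosa), the 5 highest start windows above 1 in all replicates, and the 5 highest bodies behind starts with H3K4me3 only and behind starts with H3K27me3 without H3K36me3. Other names were chosen after their values were seen. Promoters of Gdf9 and Actb were not used here. Alternatives left out replicates or took medians, logs, other starts, bodies and thresholds.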

Additional observations from a re-analysis of the deposited data

How the results depend on the processing

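Of 71 alternative values over 7 results, 63 kept the direction of their mean or, for the share of starts called, moved by less than 1 SD between replicates, 1 turned its direction and 7 moved otherwise. All ratios were formed within a replicate, so they are paired by library. No paired analysis was possible between groups because all samples form 1 group. The level of start windows against other windows (log2 -0.38) was -0.41 to -0.34 when a replicate was left out and -0.20 on log2(RPKM + 0.1). It was 0 for medians, which move only in whole reads, and 0.032 for the 5′ ends of all transcripts. The share of starts called for H3K36me3 (22.1%) was 22.1% to 24.5% without a replicate, where 24.5% was reached without replicate 3. It was 11.7% at a threshold of 1.5 and 6.25% at 2, 10.1% when each replicate had to be above 1, 16.3% for starts with no other gene within 5 kb and 32.7% for all transcripts. Without a replicate, body against start stayed between 0.94 and 1.06, H3K4me3 alone against unmarked between 1.69 and 1.80, against H3K4me3 with H3K27me3 between 1.24 and 1.37, H3K36me3 alone against H3K4me3 alone at 0.07 to 0.08, and starts inside another gene between 0.54 and 0.60. With 2 replicates the smallest exact p is 0.5. Medians raised the body against start ratio from 1.01 to 1.87 and that of H3K4me3 alone against unmarked from 1.84 to 2.80. H3K36me3 alone against H3K4me3 alone fell from 0.09 to 0.04 with medians to 0.05 in genes of at least 20 kb and to 0.0074 with the body from 10 kb on, where 1 of 3 replicates was above 0 (exact p = 1.0). Starts inside another gene could not be restricted to starts with no gene within 5 kb, which leaves none. The causes were not tested. Depth limits single start windows, with a median of 1 read in replicates 2 and 3.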

Other observations

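Gene families, read from the symbols after the values were seen, were spread unevenly over the start categories. Of 1122 olfactory receptor starts 711 (63.4%) had no mark, where 9.66% of all genes had an unmarked start. These 711 were 36.8% of all unmarked starts, where the family has 1122 of all 20001 starts. Of 240 vomeronasal receptor starts 177 had no mark. Their mean start levels were 0.355 ± 0.039 and 0.281 ± 0.025 RPKM (SD, n = 3). Of 39 Hox starts 37 had H3K4me3 and H3K27me3 (24.8% of all genes), with a mean of 0.322 ± 0.058 RPKM over the family and no H3K36me3 call (22.9%). Ribosomal protein genes had the highest starts of these families, with 1.10 ± 0.03 RPKM, and 44 of 96 had H3K36me3 and H3K4me3, where 16.2% of all genes did. Olfactory receptor, vomeronasal receptor and Hox genes lie in clusters and can share or neighbour windows, so their members are not independent.

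The position of the start within its window moved the level. Among windows with 1 start, the mean was 0.623 ± 0.055 RPKM with up to 500 bases of the window downstream of the start and 0.801 ± 0.018 with 1500 to 2000 bases downstream (SD, n = 3). The share called for H3K36me3 was 17.2% and 27.9% in these groups, and the share called for H3K4me3 was 74.5% and 76.7%. Windows with starts on both strands had 0.930 ± 0.025 RPKM, against 0.688 ± 0.038 for windows with 1 start. Their part in the differences between categories was not tested.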
